A study of Mus musculus with 19 samples.

Results

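Distal SOX9 peaks that were shared with NFIA and not with SOX3 were described in mouse glial progenitor cells (GPC). They were chosen from the deposited peak lists as SOX9 peaks more than 1000 bp from the transcription start site (TSS) of their assigned gene that overlapped a NFIA peak by at least 1 bp and overlapped no SOX3 peak. The rule gave 763 of 2943 SOX9 peaks, assigned to 614 genes. Of the other SOX9 peaks, 1629 were distal with neither factor, 275 were distal with SOX3 and without NFIA, 37 were distal with both, and 239 lay within 1000 bp of a TSS.

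The series holds glia derived from mouse embryonic stem cells (3 RNA libraries) and GPC of the same origin (4 RNA libraries). Binding was measured by chromatin immunoprecipitation and sequencing (ChIP-seq) in GPC alone, with 3 SOX9, 2 NFIA and 2 SOX3 samples and 1 peak list per factor. Per the labels, stem cells without any stated genetic change were differentiated with 0.1 μM all-trans retinoic acid, and cells carrying the surface antigen A2B5 were sorted with magnetic beads on day 8 and kept in 10 ng/ml EGF and FGF2. The glia carry the same protocol text, so neither the way they were made from these cells nor the number of stem cell lines is known here.

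SOX9 is an HMG-box transcription factor that is needed for the switch of neural stem cells from making neurons to making glia, and it stays on in astrocytes. NFIA is a nuclear factor I protein that is induced by SOX9 in the developing spinal cord and acts with it on genes of early astrocytes. SOX3 is a SOXB1 protein of neural progenitors. A ChIP-seq peak marks DNA recovered with the factor, and gives neither the gene it acts on nor a direction of effect.

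In glia the progenitor genes Nes, Fabp7, Olig1, Olig2 and Egfr were lower and the glial genes Gfap, Aqp4, Apoe and Mbp were higher, whereas the progenitor gene Sox2 was also higher in glia. Gfap, an astrocyte intermediate filament, averaged 3258 ± 291 RPKM in glia and 8.37 ± 4.70 RPKM in GPC (SD, n = 3 and 4; RPKM are reads per kilobase of gene, scaled to the reads of the library). Nes, a filament of neural progenitors, averaged 21.8 ± 2.30 RPKM in glia and 132 ± 5.77 RPKM in GPC. Reads in genes came to 6897294 to 17369367 in glia and 12836998 to 22439837 in GPC. GPC replicate 3 stood apart from the other GPC libraries on the second principal component, which held 4.48% of the variance against 90.4% for the first. On the first it lay nearer to glia, at -46.8, with the other GPC libraries at -64.8 to -63.1 and glia at 79.1 to 80.4. Between pairs of GPC libraries, scaled to their totals, the chi-square per gene was 2.05 to 3.59 without replicate 3 and 25.8 to 29.9 with it. Between glia libraries it was 4.33 to 10.0. The spread within GPC thus came largely from replicate 3. Mesenchyme markers, of which 17 of 17 rose, summed to 867 to 1050 RPKM in glia and 214 to 249 RPKM in GPC, and microglia markers to 58.8 to 61.4 RPKM in glia and 30.7 to 33.1 RPKM in GPC. The part of such cells in the changes below was not tested. In bulk RNA, fewer cells of a type and less RNA per cell cannot be told apart. Whether the replicates were separate cultures is not stated in the labels, so the p-values rest on a spread between libraries that may be technical.

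The regions lay mostly far from their genes. The median distance to the TSS was 43702 bp, with quartiles of 14400 and 152004 bp and a maximum of 1681395 bp, at Pcdh7, a protocadherin cell adhesion protein. Of the 763 regions, 138 (18.1%) lay 1 to 10 kb away, 368 (48.2%) 10 to 100 kb away, 244 (32%) 100 kb to 1 Mb away and 13 (1.7%) further. Distal SOX9 peaks with neither other factor had a median of 58102 bp and 12.6% of peaks 1 to 10 kb away, and those with SOX3 alone a median of 62582 bp and 12%. The 37 distal peaks with all 3 factors lay nearer than the regions, with a median of 31237 bp and 24.3% of peaks 1 to 10 kb away. Regions upstream of the TSS numbered 371 (48.6%) and downstream 392 (51.4%), against 58.1% downstream among SOX9 peaks with neither other factor. Distance above 1000 bp was part of the rule, and each list is 1 per factor, so these are descriptions with no test. The regions just inside the limit lay 1018 bp from Eapp, 1073 bp from 1700007K09Rik and 1122 bp from Grap, and the shared peaks just outside it lay 977 bp from Gm4799, 916 bp from Psmb3 and 869 bp from Slc35c2.

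**Figure D1:**
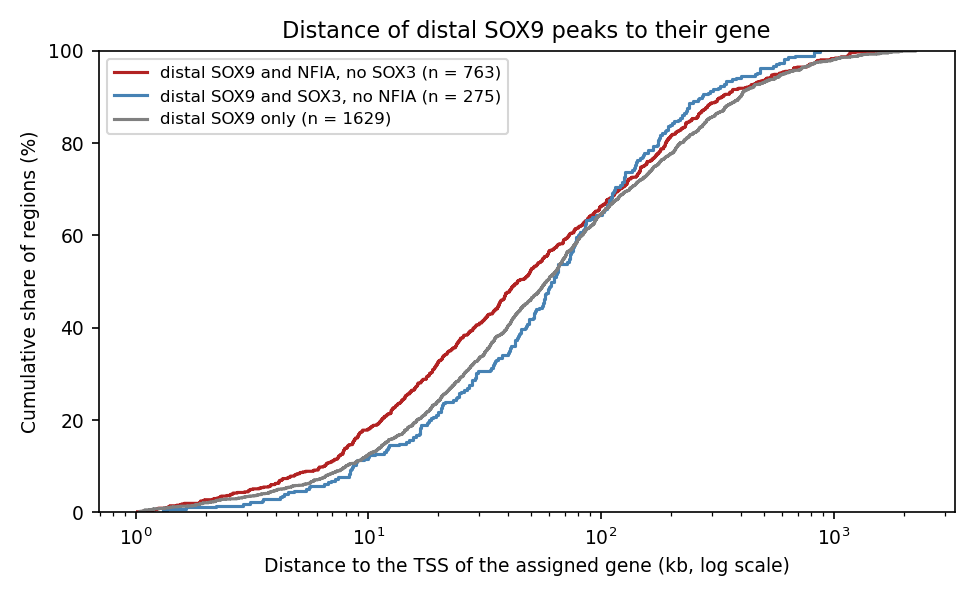
Cumulative share of distal SOX9 peaks (vertical axis, percent) by distance to the TSS of the assigned gene (horizontal axis, kb, log scale), for the 763 peaks with NFIA and no SOX3, the 275 with SOX3 and no NFIA and the 1629 with neither. The curve of the peaks with NFIA lies above the others below about 50 kb, and their median is 43702 bp. The 37 peaks with all 3 factors are not drawn and had a median of 31237 bp.

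NFIA and SOX9 peaks lay nearly on the same centre in these regions. SOX9 peaks are 601 bp wide and NFIA peaks have a median of 301 bp. The centre of the SOX9 peak and that of its highest-scoring NFIA peak were a median of 11 bp apart, 541 pairs (70.9%) were within 25 bp, and 699 regions held the whole NFIA peak. In the 37 distal peaks with all 3 factors the median was 73 bp and 12 pairs (32.4%) were within 25 bp. In the SOX9 peaks within 1000 bp of a TSS that shared a NFIA peak it was 14 bp and 24 pairs (68.6%), so close centres were not held by the distal regions alone. The smallest overlaps with the highest-scoring NFIA peak of a region were 1, 4, 8 and 13 bp, each in 1 region. A SOX3 peak lay within 10 kb of 15 regions and within 1 kb of 3.

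The NFIA score of a peak is the authors' own value, whose meaning is not stated, and it is used here only to rank peaks within the NFIA list. Its median over the regions was 31, with quartiles of 19 and 59 and a range of 14 to 946. NFIA peaks inside the regions, 745 in number, had a median score of 29, against 16 for the 13353 NFIA peaks outside SOX9 peaks. A score of at least 100 was held by 73 (9.8%) of the NFIA peaks in the regions, by 10 (15.2%) of the 66 in other SOX9 peaks and by 56 (0.419%) of those outside SOX9 peaks. The regions held 5.26% of all NFIA peaks and 52.5% of the 139 that scored at least 100.

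The highest scores stood together on chromosome 13. Of the 8 regions with the highest NFIA score, 7 were there, assigned to Zfp184, a zinc finger protein (score 946), Hist1h4h, an H4 histone (899), Hist1h2ai, an H2A histone (865 in each of 2 overlapping regions), Btn2a2, a butyrophilin of immune cells (859 in each of 2) and Pom121l2, a relative of a nuclear pore protein (780). In each of these 2 pairs both regions took the score of the same NFIA peak, of which 1 Btn2a2 region shared only 13 bp. The region of Zfp184 was mm9 chr13:22022784-22023384, 13880 bp upstream of its TSS, and that of Hist1h4h was chr13:23609307-23609907, 13313 bp upstream. The remaining region of the 8 was assigned to Ccser2, a coiled-coil serine-rich protein, with a score of 362. Chromosome 13 held 81 regions, which is 10.6% of them and 34.8% of its SOX9 peaks. The lowest share of a chromosome's SOX9 peaks was 16.9%, on chromosome 19.

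Regions also lay close to each other. A chain of at least 3 regions with gaps of at most 50 kb was called dense, and 25 such chains held 139 regions (18.2%). The same count over SOX9 peaks with neither other factor gave 22 chains with 79 of 1629 peaks (4.85%), and over those with SOX3 alone 3 chains with 9 of 275 (3.27%). SOX9 peaks within 1000 bp of a TSS had 4 chains with 28 of 239 (11.7%). The 37 distal peaks with all 3 factors had 0 chains. Peaks of the list overlap, and 91 regions overlapped another of the 763, which formed 711 separate stretches once joined. Of the 25 chains, 5 spanned under 2 kb and came from such overlaps, at Qpct, Mark1, Olfm1, Faxc and Atp5h. With overlapping regions joined, 19 chains were counted.

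The largest chain, chr13:23492408-23614075, held 19 regions, of which 6 were assigned to Abt1, an activator of basal transcription, 5 to Btn2a2, 5 to Hist1h4h and 3 to Btn1a1, a butyrophilin of milk fat. Their NFIA scores had a median of 61 and a maximum of 899. A further 12 regions lay in chr13:21974528-22142905, where Zfp184 had 6 and histone genes, Pom121l2 and the protease gene Prss16 the rest, and 6 lay in chr13:21252398-21264563 at Trim27, a RING finger protein, and Olfr1368. These stretches belong to the histone gene cluster and its flank. Chain chr11:68850244-68938448 held 13 regions, 5 of them assigned to Aurkb, a mitotic kinase, with the others at 9330160F10Rik, Aloxe3 and Hes7. Chain chr3:96202724-96305712 held 11, at BC107364 and Hfe2, the haemojuvelin gene.

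Smaller chains of 5 regions were found on chromosome 1 at 1700009P17Rik (chr1:173031723-173041914, scores 79 to 215), on chromosome 11 at Irgm1, an interferon-inducible GTPase, Trim41 and Trim7 (chr11:48631788-48670817, scores 103 to 293), and on chromosome 17 at Casp16 (chr17:23670668-23684672, scores 31 to 143). At 1700009P17Rik all regions except chr1:173041314-173041914 overlapped in a single run, so that chain did not remain once they were joined. The Irgm1 regions also overlapped in a single run. The chain of 8 regions at Zfp868 (chr8:72069127-72108459) was of another kind, with scores of 15 to 45 and 32 NFIA peaks inside the stretch, whereas the other chains of 5 or more regions held 5 to 20 NFIA peaks. The chain of 4 regions at Gm10311, also on chromosome 8, held 34 NFIA peaks.

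**Figure D2:**
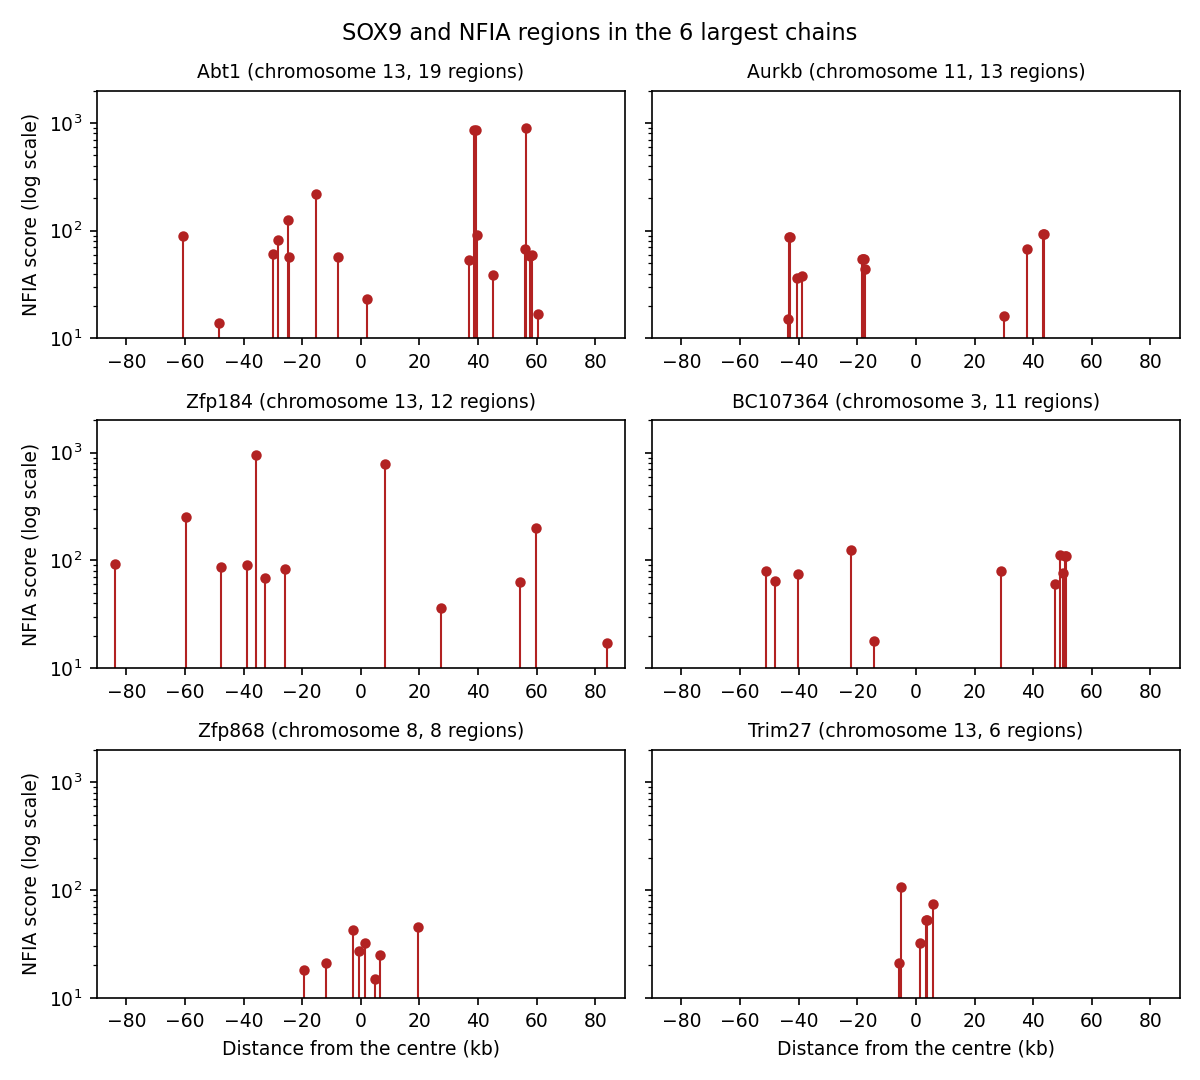
NFIA score (vertical axis, log scale) of each region in the 6 largest chains, by distance from the centre of the chain (horizontal axis, kb). The 5 highest points, of 780 to 946, are in the Abt1 and Zfp184 chains of chromosome 13, and all 8 points of the Zfp868 chain are at 45 or below. The 2 points at 859 are overlapping regions that take the score of the same NFIA peak.

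The genes in most of these chains stand next to transfer RNA (tRNA) genes, which RNA polymerase III transcribes. A gene was called a tRNA neighbour where at least 1 tRNA gene was among the 5 genes on each side of it in the gene order of RefSeq assembly GRCm38.p6, whose coordinates were not used because the peaks are on mm9. The property was examined after the chains had been seen. Of the 25 chains, 15 held a tRNA neighbour, as did 8 of the 9 chains with at least 5 regions, the Zfp868 chain being the exception. Overlapping regions were counted separately here, and the 1700009P17Rik and Irgm1 chains among the 8 reach 5 regions only through overlaps. Of the 742 regions whose gene could be placed, 153 (20.6%) were assigned to a tRNA neighbour, against 60 of 1587 (3.78%) SOX9 peaks with neither other factor and 4 of 268 (1.49%) of those with SOX3 alone. Distal SOX9 peaks with all 3 factors had 3 of 36 (8.33%). SOX9 peaks within 1000 bp of a TSS had 34 of 237 (14.3%), so the property was not held by distal shared regions alone. Among all protein-coding genes, 635 of 21887 (2.9%) were tRNA neighbours.

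Counted over genes in place of regions, 79 of 596 placed genes (13.3%) were tRNA neighbours, against 52 of 1288 (4.04%) of the genes of SOX9 peaks with neither other factor. Genes of SOX9 peaks within 1000 bp of a TSS had 30 of 219 (13.7%), so by gene the share was not higher in the regions than there. Outside the chains 58 of 607 placed regions (9.56%) were assigned to a tRNA neighbour. The share differed with the NFIA score, at 9.28% of placed regions with a score of 14 to 19, 7.07% at 20 to 31, 15.3% at 32 to 59, 51.9% at 60 to 99 and 48.8% at 100 or more. In the same classes 7.92%, 5.29%, 19.8%, 37.4% and 44.6% of regions lay in chains, where several regions often share a gene. Score and chain were not separated here. Regions of tRNA neighbours had a median score of 71 and a median distance of 14697 bp, and those of other placed genes had 26 and 66334 bp. The latter distance was longer than the median of 58102 bp of all distal SOX9 peaks with neither other factor. Peaks are not replicates and the regions share their source, so no test was made. The input libraries were not analysed here, and whether the recovery of these stretches depends on the antibody was not tested.

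**Figure D3:**
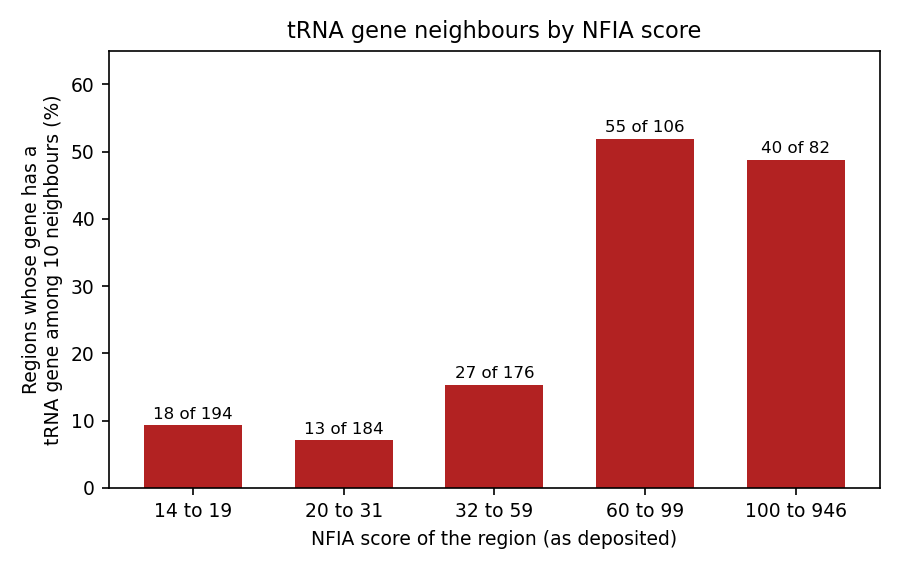
Share of placed regions whose assigned gene has a tRNA gene among its 10 neighbouring genes (vertical axis, percent), by the NFIA score of the region (horizontal axis, 5 classes), with the number of regions above each bar. The bars are at 7.07% to 15.3% below a score of 60 and at 51.9% and 48.8% above it. Regions of a chain often share a gene, so the bars do not count separate genes.

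Of the 614 assigned genes, 565 were found in the expression table (546 by symbol and 19 by a synonym), and 381 passed the filter on low counts. Another 184 were found and did not pass, of which 77 had no read in any library, and 324 of all those found were at 1 RPKM or more in GPC. The share of found genes that passed was 67.4%, against 59.2% of the whole table. It was 79.1% for genes of distal SOX9 peaks with neither other factor and 86.0% for those with SOX3 alone. A single region was assigned to 529 genes, 2 regions to 54 genes and 3 or more to 31, with 8 at most. Expression was tested with edgeR's quasi-likelihood test on counts over all 13588 genes that passed, with Benjamini-Hochberg adjustment and a threshold of 0.05.

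Among the 381 tested genes of the regions, 154 (40.4%) rose in glia and 123 (32.3%) fell. Over all genes tested, 4789 (35.2%) rose and 4779 (35.2%) fell. Called genes made up 72.7%, against 70.4% of all genes tested. The median log2 change was 0.04, against 0.00 for all genes. Rises of at least 2-fold were found for 87 genes (22.8%) and falls for 39 (10.2%), where the background is 16.5% and 9.24%. Values of glia and GPC did not overlap for 269 genes (70.6%), against 69.1% of all tested. Genes of distal SOX9 peaks with neither other factor had 374 of 970 rising (38.6%) and 342 falling (35.3%), and genes of those with SOX3 alone 66 of 191 rising (34.6%) and 77 falling (40.3%). At least 2-fold, 21.3% and 18.3% of these genes rose and 11.3% and 15.2% fell, in that order. The share of 2-fold rises was thus nearly as high for SOX9 peaks with neither other factor as for the regions. Without GPC replicate 3, 164 of 379 genes of the regions rose and 137 fell, against 5159 and 5114 of 13550 in the table. No test of the set was made, since it was chosen with these results known.

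**Figure D4:**
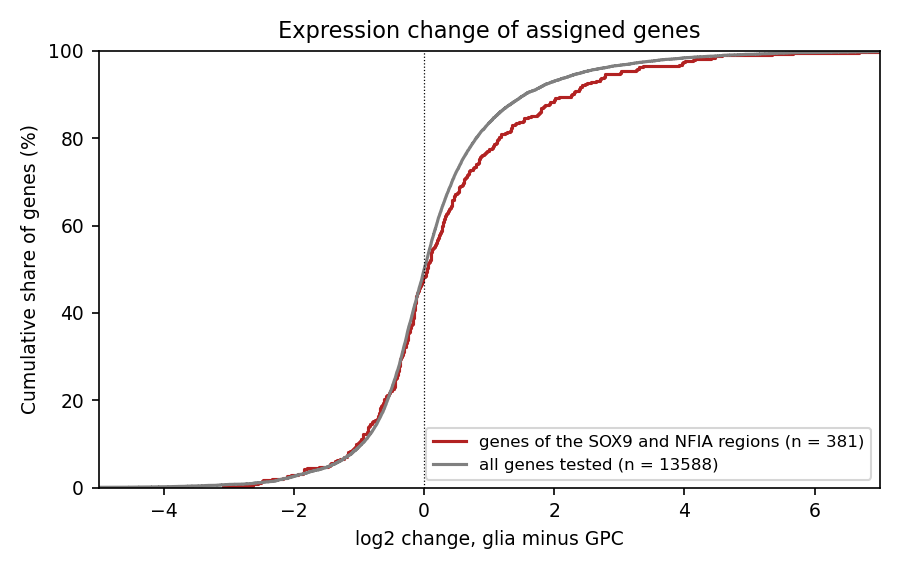
Cumulative share of genes (vertical axis, percent) by log2 change, glia minus GPC (horizontal axis), for 381 tested genes of the regions and 13588 genes tested in all. The 2 curves lie close together below 0, and above about 1 the curve of the regions' genes is lower, where 22.8% of them rose at least 2-fold against 16.5% of all genes. Genes of distal SOX9 peaks with neither other factor, which are not drawn, had 21.3%.

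The counts were also taken by what else was bound near the genes. For 246 tested genes with no other SOX9 peak and no SOX3 peak, 111 (45.1%) rose and 76 (30.9%) fell, with a median log2 change of 0.15. For 135 that also had one, 43 (31.9%) rose and 47 (34.8%) fell, with a median of -0.11. By distance of the nearest region, 17 of 51 genes rose and 20 fell at 1 to 10 kb, 79 and 57 of 191 at 10 to 100 kb, and 58 and 46 of 139 further away. Of 41 tested tRNA neighbours, 11 rose and 15 fell, against 143 and 108 of 340 other placed genes. The differences between these subsets were not tested.

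The NFI genes themselves were among those assigned. Nfia had 1 region, chr4:97152804-97153404, 291196 bp upstream of its TSS, with a NFIA score of 18. Its RPKM were 22.02, 27.1 and 20.8 in glia and 10.4, 11.1, 15.8 and 11.2 in GPC. Every glia library was above every GPC library, with GPC replicate 3 highest of the GPC, and Nfia rose by 0.89 ± 0.15 on the log2 scale (SE, adjusted p = 0.000637, edgeR's quasi-likelihood test). Nfib, another nuclear factor I protein, had 1 region with a score of 89, chr4:82265270-82265870, 114358 bp upstream. It had 24.2, 28.5 and 23.3 RPKM in glia and 28.2, 30.8, 38.4 and 32.3 RPKM in GPC, so that the groups overlapped by 1 library. Nfib fell by 0.40 ± 0.11 (SE, adjusted p = 0.00762, edgeR). Neither Sox9 nor Sox3 had a region of this kind, and Sox3 fell in glia (adjusted p = 0.00638, edgeR).

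Of 104 transcription factor genes on a list of neural and glial regulators, 9 had a region and were tested, of which 3 rose, 2 fell and 4 were not called, with a median log2 change of 0.04. The rises were Nfia, Tcf7l2, a partner of β-catenin (log2 change 0.41), and Tshz1, a zinc finger protein (0.20). The rise of Tshz1 had an adjusted p of 0.0405 by edgeR and missed the threshold in 8 of 13 alternative settings, at up to 0.18 without glia replicate 1. The falls were Nfib and Irx5, an Iroquois homeodomain protein, which had 12.05, 9.64 and 14.1 RPKM in glia and 15.0, 15.2, 16.6 and 16.3 RPKM in GPC. All glia values of Irx5 were below all GPC values. Irx2, Meis2, Satb1 and Sox4 were not called, with log2 changes of 0.29, -0.16, -0.18 and 0.04. Irx2 passed without GPC replicate 3 (0.40, adjusted p = 0.0014, edgeR), and Satb1 without GPC replicate 1 (-0.23, adjusted p = 0.0463, edgeR). On the whole list 31 of 95 tested genes rose and 36 fell.

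Genes of glial cell types were few. Of 67 astrocyte genes 3 had a region, and of the whole list 45 rose and 15 fell with a median of 1.65. Cd44, a hyaluronan receptor of astrocyte-lineage cells, had a region 1961 bp upstream of its TSS (score 71) and 30.7, 34.1 and 26.1 RPKM in glia against 8.73, 9.50, 6.98 and 9.02 RPKM in GPC. It rose by 1.79 ± 0.12 (SE, adjusted p = 4.03e-07, edgeR). Aldh1l1, a folate enzyme used as an astrocyte marker, had 11.3, 12.9 and 11.9 RPKM in glia and 29.5, 30.0, 17.0 and 30.4 RPKM in GPC. It fell by 1.19 ± 0.20 (SE, adjusted p = 0.000663, edgeR), and its groups did not overlap. Dio2, which activates thyroid hormone, rose by 1.12 ± 0.27 (SE, adjusted p = 0.00351, edgeR) at levels of 0.257 to 0.350 RPKM in glia and 0.0993 to 0.172 RPKM in GPC.

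Of 44 maturing oligodendrocyte genes 2 had regions and both rose, where 37 of 42 tested genes of the list rose and none fell. Opalin, a membrane protein of myelin, had its region 18326 bp downstream of the TSS at chr19:41132978-41133578. It had 6.42, 5.85 and 7.53 RPKM in glia and 0, 0.171, 0.0498 and 0 RPKM in GPC. The reads numbered 252 in glia and 3 in GPC, which gives a ratio per total count of 124 (exact 95% interval 42.0 to 606, for counting error only), and Opalin rose (adjusted p = 2.79e-07, edgeR). Pllp, plasmolipin of myelin, had 2 overlapping regions 7433 and 7806 bp upstream, and 39.6, 23.1 and 44.7 RPKM in glia against 1.77, 2.10, 2.72 and 2.65 RPKM in GPC. It rose by 3.92 ± 0.25 (SE, adjusted p = 1.76e-06, edgeR). Nxph1, a neurexin ligand and the 1 member of 40 oligodendrocyte precursor genes, was not called (log2 change 0.21). No gene of the 40 neural progenitor genes had a region.

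Of 65 genes of the FGF, EGF and MAPK pathway 7 had regions, of which 3 rose, 2 fell, 1 was not called and Fgf9 was too low to test. On the whole list 24 of 62 tested genes rose and 29 fell. Fgfr2 had 22.1, 21.5 and 22.6 RPKM in glia and 7.82, 8.51, 9.70 and 8.45 RPKM in GPC, a rise of 1.31 ± 0.08 (SE, adjusted p = 1.83e-07, edgeR). Fgfr1, its relative, had 40.7, 42.5 and 40.4 RPKM in glia and 69.0, 61.6, 66.3 and 65.6 RPKM in GPC, and fell by 0.70 ± 0.06 (SE, adjusted p = 3.70e-06, edgeR). In both genes the groups did not overlap, and the regions lay 18255 bp and 148358 bp upstream of the TSS of Fgfr2 and Fgfr1, in that order. Ntrk2, the receptor of BDNF whose truncated form is high in astrocytes, rose by 3.30 ± 0.27 (SE, adjusted p = 1.28e-05, edgeR), and averaged 312 RPKM in glia and 31.5 RPKM in GPC.

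Bmp6, a bone morphogenetic protein, had a region 48578 bp upstream and 30.3, 27.7 and 30.0 RPKM in glia, against 0.231, 0.406, 1.37 and 0.426 RPKM in GPC. It rose by 5.35 ± 0.36 (SE, adjusted p = 3.58e-06, edgeR) and by 6.31 without GPC replicate 3, and was the 1 gene of 44 on the BMP and TGF-beta list, where 18 of 41 tested genes rose and 9 fell. Jag1, a Notch ligand with overlapping regions 316026 and 316258 bp upstream, fell by 0.70 ± 0.09 (SE, adjusted p = 4.80e-05, edgeR). It was the 1 gene of 33 of the Notch list, where 10 rose and 15 fell. Of 60 Wnt and hedgehog genes 6 had regions, and on the whole list 19 of 54 tested genes rose and 20 fell. Gli2, a hedgehog effector, Wnt5a, a Wnt ligand, and Tcf7l2 rose by 0.42, 0.43 and 0.41 on the log2 scale, Gas1, a hedgehog co-receptor, fell by 1.02, and Boc and Ror1 were not called (-0.17 and -0.21).

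Adhesion and axon guidance genes were the most numerous of the 18 lists, with 13 of 107 and 12 tested. Of these 6 rose, 4 fell and 2 were not called, with a median log2 change of 0.26, and on the whole list 58 of 96 rose and 25 fell with a median of 0.77. The list was also the longest, and it held 2.12% of the genes of the regions. The share was higher for distal SOX9 peaks with neither other factor (3.32%) and with SOX3 alone (2.99%). Ntm, neurotrimin, had 26.2, 22.4 and 25.9 RPKM in glia against 2.36, 2.64, 3.99 and 2.75 RPKM in GPC and rose by 3.01 ± 0.16 (SE, adjusted p = 1.06e-07, edgeR). Lsamp, a relative of neurotrimin, rose by 1.16, and Plxna4 and Sema6a, a plexin and a semaphorin, by 0.92 and 0.41. Cadm1 and Epha5, a cell adhesion molecule and an ephrin receptor, fell by 0.94 and 0.86, and the protocadherins Pcdh7 and Pcdh17 by 0.34 and 0.32. Both protocadherins missed the threshold without glia replicate 3 (adjusted p = 0.12 and 0.0761, edgeR), and Cntn4, a contactin that rose by 1.18, missed it without glia replicate 1 (adjusted p = 0.072).

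Of 78 ion channel and transporter genes 8 had regions, of which 4 rose, 3 fell and 1 was not called, and on the whole list 43 of 71 tested genes rose and 13 fell with a median of 0.68. Kcnj16, an inwardly rectifying potassium channel, had 28.7, 29.4 and 27.2 RPKM in glia and 6.94, 7.44, 8.08 and 8.19 RPKM in GPC, and rose by 1.86 ± 0.08 (SE, adjusted p = 2.29e-08, edgeR). Gria2, Grm7 and Scn8a, glutamate receptor and sodium channel genes, also rose. The rise of Grm7 was 2.77 on the log2 scale, and 4.66 without GPC replicate 3. Kcnd3, Cacna2d1 and Slc12a2, a potassium channel, a calcium channel subunit and an ion cotransporter, fell. Kcnma1, another potassium channel, was not called, and passed without GPC replicate 3 (-0.51, adjusted p = 0.00424, edgeR). The chosen lists held 60 (9.77%) of the 614 genes, against 167 (12.6%) of the 1325 genes of SOX9 peaks with neither other factor and 41 (17.5%) of the 234 with SOX3 alone.

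The largest rise was that of Cbln2, a synaptic organiser with a region 453640 bp downstream. It had 9.19, 5.82 and 9.21 RPKM in glia, against 0.0353, 0, 0.0202 and 0 RPKM in GPC. Its reads numbered 790 in glia and 2 in GPC, a ratio per total count of 584 (exact 95% interval 161 to 4829, for counting error only; adjusted p = 3.33e-08, edgeR). After Cbln2, Opalin and Bmp6 came Dkk2, a Wnt modulator (4.58 ± 0.29 on the log2 scale), Nov, a matricellular protein (4.47 ± 0.25), and Epha3, an ephrin receptor (4.40 ± 0.22). Tcerg1l and Trim29 rose by 4.16 ± 0.21 and 4.14 ± 0.54, and Trim29 by 6.42 without GPC replicate 3, which held 16 of its 18 GPC reads. These 8 genes were picked for a large rise with groups that do not overlap and at least 1 RPKM in either group, so low levels in GPC follow from the choice.

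**Figure D5:**
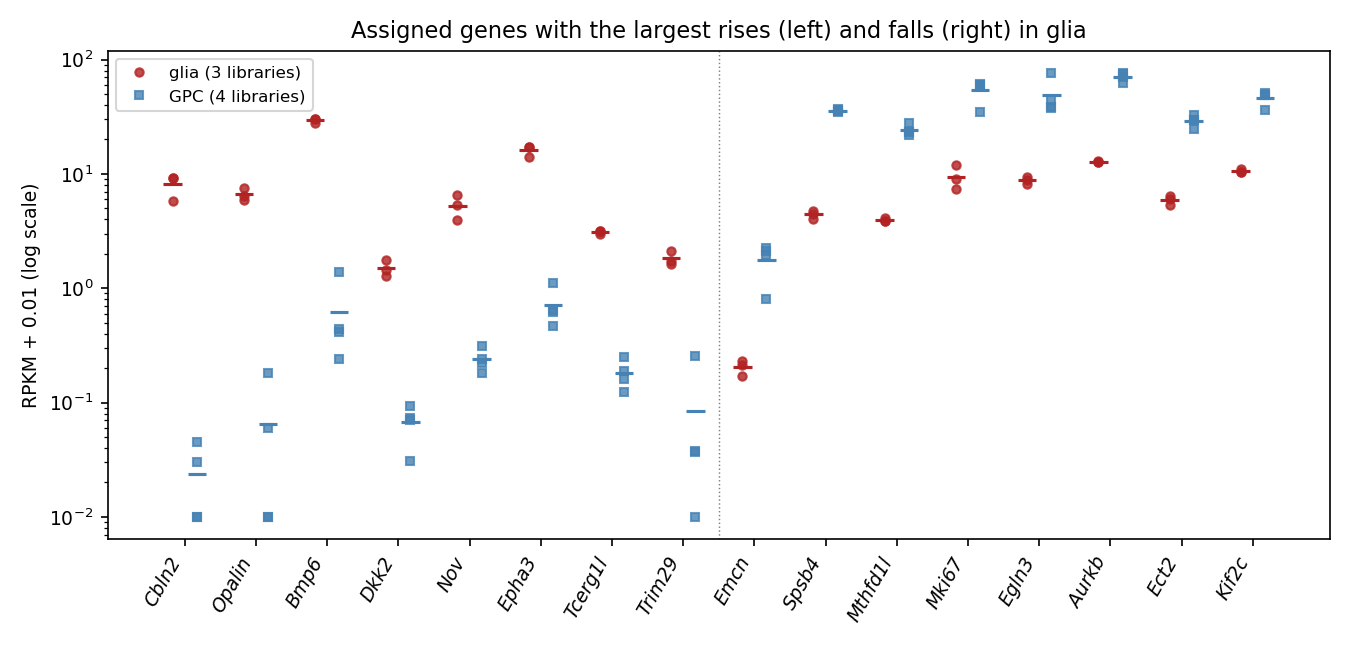
RPKM plus 0.01 (vertical axis, log scale) of the 8 genes with the largest rises (left of the dotted line) and the 8 with the largest falls (right), in 3 glia libraries (red circles) and 4 GPC libraries (blue squares), with bars at the means. Genes were picked for groups that do not overlap, so the separation is part of the choice, and the plot shows the levels, such as 27.7 to 30.3 RPKM in glia for Bmp6 and 62.8 to 75.9 RPKM in GPC for Aurkb. Points at 0.01 stand for 0 RPKM.

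The largest falls included several genes of the dividing cell. Mki67, the Ki-67 protein of proliferating cells, with a region 282797 bp upstream, had 8.99, 12.03 and 7.41 RPKM in glia, and 60.04, 59.8, 34.5 and 60.9 RPKM in GPC, where replicate 3 was lowest. It fell by 2.55 ± 0.25 (SE, adjusted p = 3.25e-05, edgeR). Aurkb, in the dense chain of chromosome 11, had 12.8, 12.99 and 12.7 RPKM in glia and 75.9, 74.3, 62.8 and 71.0 RPKM in GPC, and fell by 2.50 ± 0.08 (SE, adjusted p = 6.56e-09, edgeR). Ect2 and Kif2c, of cytokinesis and the mitotic spindle, fell by 2.33 ± 0.11 and 2.16 ± 0.12. Cdkn1c, a cell cycle inhibitor, rose by 1.77 ± 0.34 (SE, adjusted p = 0.00221, edgeR). Of the 52 cell cycle genes on the list, 49 fell and 1 rose, with a median of -2.07. Emcn, an endothelial sialomucin, fell by 3.10 ± 0.49, Spsb4, a ubiquitin ligase adaptor, by 3.02 ± 0.08, Mthfd1l, a mitochondrial folate enzyme, by 2.63 ± 0.11, and Egln3, an oxygen-sensing hydroxylase, by 2.51 ± 0.28.

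Some genes of the chains with at least 4 regions had few reads. Of 35 assigned genes, 31 were found, 17 were tested, 4 rose, 8 fell and 5 were not called, where 70.4% of all tested genes were called. Another 14 found genes were too low to test, 3 of them at 0 reads in every library. Zfp184, with 6 regions, had 6.51, 5.52 and 5.37 RPKM in glia and 5.57, 6.08, 6.10 and 6.55 RPKM in GPC, and was not called (log2 change -0.09 ± 0.11, adjusted p = 0.474, edgeR). Hist1h4h, with 5 regions, had 5 to 9 reads in glia and 0 to 4 in GPC and was not tested. Histone genes are near-identical copies, so their counts are uncertain. Btn2a2, with 5 regions, had 0.0779, 0.0971 and 0.0963 RPKM in glia and 0.325, 0.512, 0.558 and 0.530 RPKM in GPC, from 2 to 5 reads in glia and 13 to 38 reads in GPC. Its groups did not overlap, and it fell by 2.47 ± 0.34 (SE, adjusted p = 9.68e-05, edgeR). 1700009P17Rik rose by 2.78 ± 0.22 and Irgm1 by 1.52 ± 0.27, and Trim27 and Trim7 fell by 0.68 ± 0.08 and 0.85 ± 0.11. Zfp868 had 8 regions, the most of any gene, and 15.9, 18.99 and 17.01 RPKM in glia against 13.4, 12.2, 13.5 and 13.3 RPKM in GPC, a rise of 0.34 ± 0.08 (SE, adjusted p = 0.00403, edgeR).

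Genes at the top of the expression range were also assigned. Tmsb4x, an actin-binding thymosin, averaged 1551 ± 7.15 RPKM in glia and 1492 ± 192 RPKM in GPC and was not called. Hnrnpk, an RNA-binding protein whose region had a NFIA score of 232, averaged 307 ± 4.04 RPKM in glia and 475 ± 29.5 RPKM in GPC (SD, n = 3 and 4), and fell by 0.66 ± 0.07 (SE, adjusted p = 8.55e-06, edgeR). Over the tested genes of the regions the median level was 11.3 RPKM in glia and 9.68 RPKM in GPC, against 12.7 and 12.4 RPKM over all tested genes.

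Markers of other cell types were also looked up. Col3a1, a fibrillar collagen of mesenchyme with a region 360308 bp upstream, had 236, 250 and 214 RPKM in glia against 55.8, 56.2, 49.7 and 55.1 RPKM in GPC, and rose by 2.07 ± 0.07 (SE, adjusted p = 8.61e-09, edgeR). Of 10 endothelial markers 4 had a region, Emcn, Flt1, Cdh5 and Tek. Emcn fell, Flt1 was not called and Cdh5 and Tek were too low to test, with the summed level of the list at 2.83 to 4.27 RPKM in glia and 3.34 to 5.52 RPKM in GPC. Elavl2, an RNA-binding protein of neurons with overlapping regions 40301 and 40470 bp downstream, fell by 0.46 ± 0.14 (SE, adjusted p = 0.0134, edgeR), and missed the threshold without glia replicate 3 (adjusted p = 0.0697). It was the 1 gene with regions of 28 neuronal markers, of which 8 of 16 tested rose and 2 fell with a median of 0.43, and which summed to 123 to 140 RPKM in glia and 53.1 to 57.5 RPKM in GPC. Klf4, of pluripotent cells, rose by 0.94 ± 0.18 (SE, adjusted p = 0.000926, edgeR). It was the 1 gene with a region of 11 pluripotency markers. Only 2 of these markers were tested, of which 1 rose and 1 fell, with a median log2 change of -1.218. None of the 14 microglia markers had a region.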

How the data were processed

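Counts of reads per gene in 4 GPC and 3 glia libraries were deposited by the authors as whole numbers, and RPKM were computed by the authors per kilobase of gene and scaled to library size (per the file headers). The peak lists are on mm9, per the submitters' processing notes, which name MACS and MACS2 as callers. SOX9 peak names carry MACS2 and merged samples. The NFIA score was deposited by the authors without its meaning. The gene and the signed distance in bp of each SOX9 peak were assigned by the authors in a way not given in the sources used here. Negative distances were read as upstream.

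The test used edgeR 4.0.16 in R 4.3.3 on the counts (TMM scaling, filterByExpr, robust quasi-likelihood fit, two-sided, Benjamini-Hochberg at 0.05) over 13588 genes. DESeq2 1.42.0 was an alternative. The code was tested on simulated data. RPKM served for levels. Overlaps, chains and lists were computed in Python 3.11.15 with pandas 2.3.3. Peaks were compared by overlap of at least 1 bp.

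Gene symbols were matched through synonyms of RefSeq GRCm38.p6, whose gene order alone served for tRNA neighbours. Exon or intron positions were not assigned because no mm9 annotation was used here, and for the same reason no sequences are printed. Named genes were those with the most regions or the highest NFIA scores, the 8 largest rises and falls with at least 1 RPKM in either group and groups that did not overlap, the 4 highest in GPC, up to 4 per list and those in chains. Further genes of the lists were named after their values were seen. The regions and lists were chosen with earlier results of these data known. The 5 input and H3K27Ac samples were not analysed here. Strand of counting is not given, so overlapping and antisense genes cannot be told apart.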

Additional observations from a re-analysis of the deposited data

Results flagged for a closer look

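In 15 of the 87 named genes that were tested, 1 GPC library stood apart from the other 3 by RPKM. Its gap to the nearest other library, as a share of the range of the 4 libraries, was above Dixon's 95% critical value. Chance gives about 1 in 20 for a single gene. The genes share the same 4 libraries and some were picked for groups that do not overlap, so the 15 cannot be set against that rate. GPC replicate 3 was that library in 13 of the 15, highest in 9 and lowest in 4.

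Replicate 3 was highest for Cdkn1c (gap 0.963 of the range), Lsamp (0.948), Ntrk2 (0.948), Mreg (0.936), Grm7 (0.932), Trim29 (0.887), Sulf1 (0.871), Jag1 (0.869) and Nfia (0.863). It was lowest for Mki67 (0.958), Aldh1l1 (0.932), Kif2c (0.881) and Col3a1 (0.841). Replicate 1 was lowest for Ccser2 (0.878) and replicate 2 for Zfp868 (0.853).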

How the results depend on the processing

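The number of regions was 696 to 760 and of chains 19 to 28 under the other limits on distance, overlap, NFIA score, SOX3 distance and gap, and with overlapping regions joined, which was added after the data were seen. Counts of regions with a tRNA neighbour were 136 with 3 and 167 with 10 genes on each side. Leaving out 1 library at a time gave 4362 to 5159 rising and 4150 to 5114 falling genes in the table, and 149 to 164 and 109 to 137 among the genes of the regions. DESeq2 gave 161 and 124 of 450 tested genes of the regions, against 4883 and 4775 of 15810 in the table. Restricting to genes with no other SOX9 and no SOX3 peak gave 76 falling genes of 246 tested (30.9%). Restricting to genes with a region within 100 kb gave 96 rising and 77 falling, from the 51 tested genes at 1 to 10 kb and the 191 at 10 to 100 kb. Over all genes tested 35.2% rose and 35.2% fell.

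Replicate numbers were not taken to pair libraries, since deviations of same-numbered libraries correlated at -0.02, 0.14 and 0.07 for numbers 1, 2 and 3. With the replicate block 4518 of 13588 genes rose and 4382 fell, and of the 381 tested genes of the regions 151 rose and 113 fell.

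Of 67 named genes that were called, 62 kept the call and direction in every one of the 13 settings in which they had a value, and Tshz1, Elavl2, Cntn4, Pcdh7 and Pcdh17 lost it in some. Reversals were of genes not called. Without single replicates, log2 changes ran from -0.147 to 0.0225 for Flt1, -0.148 to 0.0783 for Gpc6, -0.148 to 0.251 for Tmem106a, -0.0424 to 0.116 for Tmsb4x, -0.177 to 0.0174 for Ntrk3, -0.19 to 0.0223 for Robo1 and -0.0401 to 0.208 for Sox4. Gpc6 was 0.00733 at 50 counts in 3 libraries and 0.00748 with the replicate block, and Tmsb4x was -0.0297 with the block. The cause of these was not tested. Depth limits genes of few reads, of which 184 were not tested.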
